A study of Rattus norvegicus with 9 samples.

Results

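Reactive astrocyte genes are followed here through 9 one-color arrays of the rat brain. They are Gfap, Vim, Nes, Serpina3n, Lcn2, Stat3, Osmr, S1pr3 and Hspb1, 9 of the 19293 genes with a symbol on the array. The genes were chosen by name for their known place in the astrocyte response to injury, with earlier results of these data known. They are covered by 11 probes, since Gfap and Nes have 2 each, and the probe with the highest mean log2 signal over the 9 arrays stands for a gene. All 9 genes entered the tests.

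The study used male Sprague-Dawley rats and asked what Danhong injection (DHI), a drug made from the herbs Salvia miltiorrhiza and Carthamus tinctorius, does to the transcriptome of the brain after cerebral ischemia/reperfusion (I/R). In the I/R group a filament closed the middle cerebral artery for 2 h and was then withdrawn. The DHI group had the same occlusion and received DHI through the tail vein every day until day 14, while the Sham group had the artery exposed without a filament and received solvent. RNA of the infarcted hemisphere was taken on day 14 from 3 rats per group, 1 array per rat. The RNA is of bulk tissue that includes the infarct, so that more cells of a type and more RNA per cell cannot be told apart. The 6 Sham and I/R arrays shared 1 slide and scan, and the 3 DHI arrays were on slide 2 and scan 2. In any comparison with the DHI group, treatment and slide therefore cannot be told apart, whereas I/R versus Sham lay within slide 1.

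Astrocytes answer injury by enlarging, by building more intermediate filaments and by releasing acute-phase proteins, a state called reactive gliosis, and around an infarct they form a glial scar. Cytokines of the interleukin-6 family signal through the shared receptor chain gp130 and the transcription factor STAT3, one of the main switches of that state. Gfap is the marker most closely tied to astrocytes, whereas Vim, Lcn2, Hspb1 and Serpina3n are also made by vascular, immune or other glial cells.

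The probes are 60-base oligonucleotides placed by the array files on the rat genome build rn4, and they fix which part of a transcript each value stands for. Those shown whole are of Vim (chr17:87851390-87851449, plus strand, base 711 of its transcript), Osmr (chr2:56080710-56080769, minus strand, base 2819), S1pr3 (chr17:19659967-19660026, minus strand, base 1080) and Hspb1 (chr12:21911494-21911664, minus strand, base 456, where the 60 bases of the probe span 171 bases of genome). For Gfap the first 30 bases of both probes are shown, because they lie in different places, A_44_P464502 at chr10:92060835-92060894 and A_64_P049977 at chr10:92063092-92063151, both on the minus strand. The first 30 bases are also given for the secreted proteins Serpina3n (chr6:128469197-128469256, plus strand) and Lcn2 (chr3:11511592-11511651, minus strand). All are written in lower case from 5′ to 3′ with no base marked.
Vim probe A_42_P509365: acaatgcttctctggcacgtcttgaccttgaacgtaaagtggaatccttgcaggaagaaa
Osmr probe A_64_P018811: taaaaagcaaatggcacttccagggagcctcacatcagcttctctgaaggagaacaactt
S1pr3 probe A_64_P048531: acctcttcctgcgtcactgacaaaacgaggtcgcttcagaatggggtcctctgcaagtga
Hspb1 probe A_44_P992908: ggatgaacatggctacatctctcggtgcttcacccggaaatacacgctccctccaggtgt
Gfap probe A_44_P464502: agcaagacaaacattcagacagaaaggaaa
Gfap probe A_64_P049977: aggccacaaagtcacaagacatctcaaaag
Serpina3n probe A_44_P1000653: ctacttagagcaatgcagcctttcttttag
Lcn2 probe A_42_P638620: caatgcattgacaactgaacagacggtgag

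Values below are log2 signals minus the 75th percentile of their own array, so that 0 is the level of that percentile and each unit is a doubling. They compare arrays for the same probe and not 1 probe with another. A gene is said to have risen or fallen where limma gave a Benjamini-Hochberg adjusted p under 0.05 over all 23736 probes tested and the fold change was above 1.5. The thresholds of the study, an unadjusted p under 0.05 and a fold change above 1.5, are given beside it.

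I/R versus Sham asks what ischemia and reperfusion left in the hemisphere at day 14. The reactive astrocyte genes stood higher in I/R throughout, with a median log2 fold change of 2.53 over the 9 genes against -0.10 over all probes tested. At the thresholds of the study 9 of 9 were higher, where 20.9% of all probes were called higher. Osmr is among them, although its probe passed the filter on dim signal only through the I/R arrays. Among probes well above background on all 9 arrays, 8 of 8 members were higher, where 20.1% of those probes were. After adjustment 8 of 9 had risen, against 16.4% of all probes, and Osmr was the exception. For all 9 genes each I/R array lay above each Sham array, which held for 26.7% of all probes. When the 6 arrays of slide 1 were fitted alone, 9 of 9 passed the adjusted test, as did 41.1% of all probes in either direction. The adjusted calls depended on which array was left out. Without any 1 of the 3 Sham arrays, DHI 3, I/R 1 or I/R 2, 0 of 9 passed, and at most 1 of all probes did. Without I/R 3 or DHI 2, 8 of 9 passed, and without DHI 1, 9 of 9. Of all probes 42.7%, 33.7% and 43.2% then passed, in the same order and in either direction. At least 8 of 9 stayed at the thresholds of the study without any single array, where 16.4% to 24.8% of all probes were higher.

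**Figure D1:**
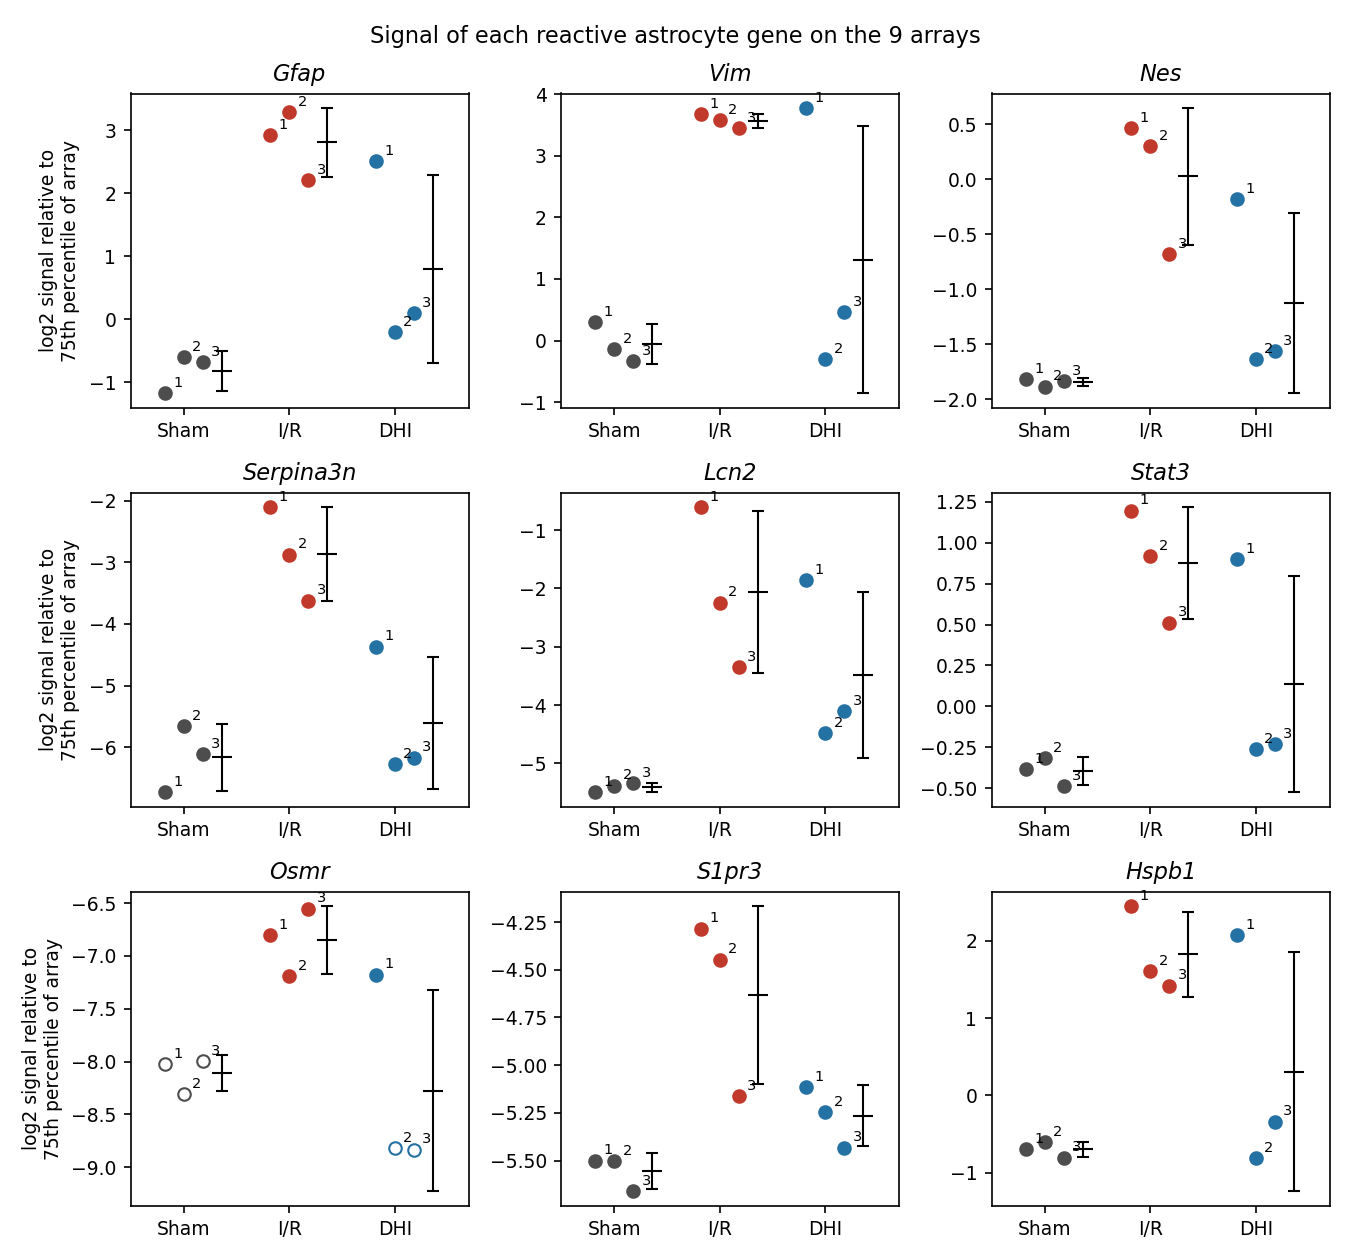
Log2 signal minus the array's 75th percentile (vertical axis, a separate scale per gene) for the 9 genes by group; each point is 1 array with its replicate number, open points were not well above background, and bars are the group mean ± SD (n = 3). DHI 1 is the highest DHI array for 9 of 9 genes, and DHI 2 and DHI 3 lie below every I/R array for 9 of 9. The share of all probes for which either holds was not counted.

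The intermediate filament genes build the cytoskeleton of the reactive astrocyte. Gfap, glial fibrillary acidic protein, measured -1.18, -0.60 and -0.69 on the Sham arrays and 2.92, 3.29 and 2.21 on the I/R arrays. The lowest I/R array was far above the highest Sham array, and Gfap rose 12.4-fold (log2 fold change 3.63, SE 0.67, limma adjusted p = 0.0396). Its second probe gave -4.24, -4.16 and -4.00 in Sham against 0.44, -0.29 and -1.23 in I/R, a log2 fold change of 3.77 with SE 0.71. Both Gfap probes therefore gave the same direction and nearly the same size.

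Vim encodes vimentin, the filament protein that immature and reactive astrocytes share with endothelial cells, fibroblasts and microglia. It measured 0.29, -0.14 and -0.33 in Sham and 3.67, 3.57 and 3.45 in I/R. The 3 I/R arrays were almost level, and Vim rose 12.3-fold (log2 fold change 3.62, SE 0.90, limma adjusted p = 0.0396). The SD between rats was 0.32 in Sham and 0.11 in I/R, and the SE also holds the SD of 2.17 in DHI. Nes encodes nestin, a filament of neural stem cells that reactive astrocytes re-express. It was nearly level in Sham at -1.81, -1.88 and -1.83 and measured 0.46, 0.30 and -0.68 in I/R. I/R 3 was the lowest I/R array but still above Sham, and Nes rose 3.66-fold (log2 fold change 1.87, SE 0.44, limma adjusted p = 0.0396). The second Nes probe gave a log2 fold change of 1.84 with SE 0.43.

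The secreted proteins covered the widest range among I/R arrays. Serpina3n, a serine protease inhibitor, measured -6.73, -5.65 and -6.12 in Sham and -2.10, -2.88 and -3.62 in I/R. The groups were well apart, and Serpina3n rose 9.86-fold (log2 fold change 3.30, SE 0.59, limma adjusted p = 0.0396). Lcn2, the iron-siderophore binding protein lipocalin 2, lay between -5.50 and -5.34 in Sham and measured -0.60, -2.24 and -3.35 in I/R. I/R arrays thus differed among themselves by 2.75 log2 units, the widest I/R range of the 9 genes, and still Lcn2 rose 10.1-fold (log2 fold change 3.34, SE 0.82, limma adjusted p = 0.0396). With normexp background correction the log2 fold change was 2.09 for Serpina3n and 2.51 for Lcn2.

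Among the signaling genes the log2 fold changes lay between 0.92 and 1.27. Stat3, the transcription factor named above, measured -0.38, -0.32 and -0.49 in Sham and 1.20, 0.92 and 0.51 in I/R, and rose 2.41-fold (log2 fold change 1.27, SE 0.33, limma adjusted p = 0.0396). S1pr3, a receptor for sphingosine-1-phosphate, measured -5.50, -5.50 and -5.66 in Sham and -4.28, -4.45 and -5.16 in I/R. I/R 3 came close to Sham, and S1pr3 rose 1.90-fold, the smallest change among the 8 genes that passed (log2 fold change 0.92, SE 0.24, limma adjusted p = 0.0396). With normexp background correction it was 0.46 with limma adjusted p = 0.135.

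Osmr, the oncostatin M receptor that pairs with gp130, had a probe well above background on all 3 I/R arrays but on no Sham array. It measured -8.02, -8.31 and -8.00 in Sham and -6.80, -7.19 and -6.55 in I/R. The 2 spots of the probe lay far apart on I/R 3, with an SD of 1.56, and the mean spot SD was 0.75 in I/R. The groups did not overlap and the fitted value was 2.40-fold higher in I/R, but the adjusted test was missed (log2 fold change 1.26, SE 0.43, limma adjusted p = 0.0548). Normexp background correction left 0.22 of that log2 difference.

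Hspb1, the small heat shock protein HSP27 that binds unfolded proteins and filaments, measured -0.69, -0.60 and -0.80 in Sham and 2.46, 1.61 and 1.42 in I/R. Sham arrays were close to each other and far below I/R, and Hspb1 rose 5.77-fold (log2 fold change 2.53, SE 0.68, limma adjusted p = 0.0403).

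**Figure D2:**
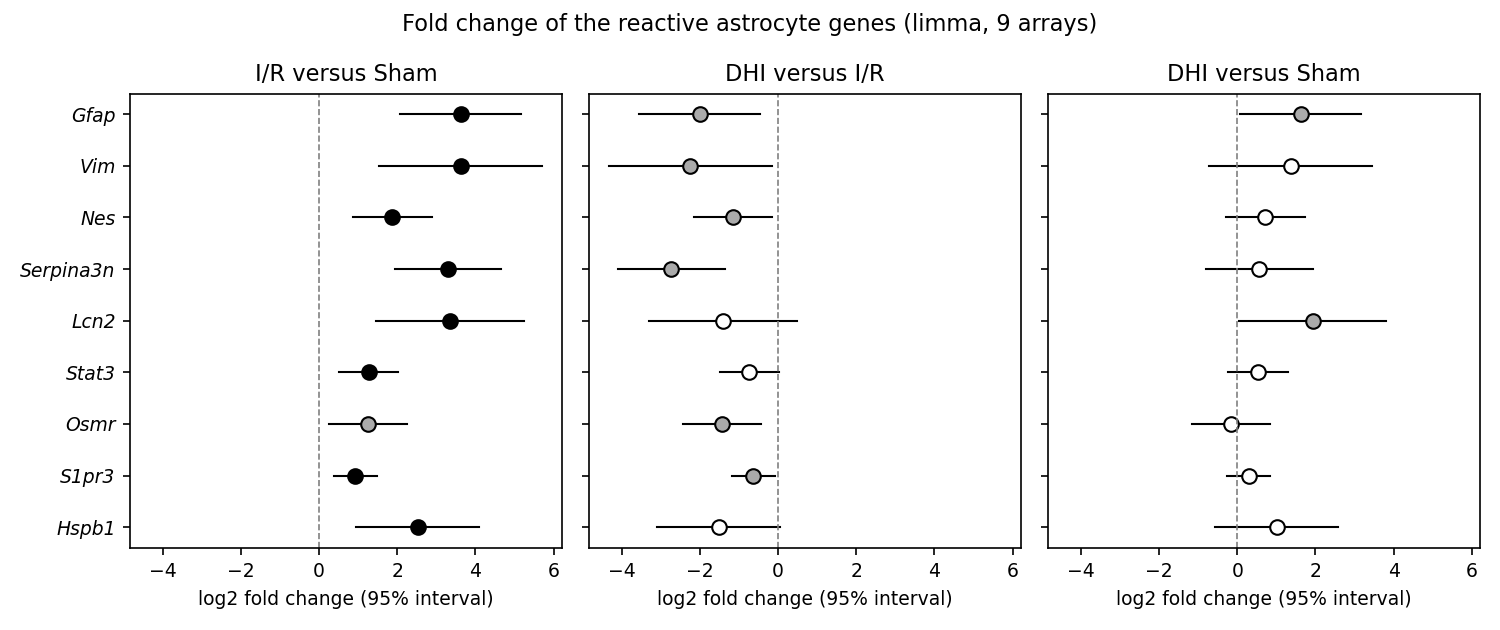
Log2 fold change with its 95% interval from limma for the 9 genes (rows) in the 3 comparisons (panels); black points passed the adjusted p, grey points met the study's thresholds only, and white points neither. In I/R versus Sham 8 of 9 points are black and in the other panels none are.

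DHI versus I/R asks what treatment did to the injured hemisphere. All 9 log2 fold changes were negative, from -2.74 for Serpina3n to -0.63 for S1pr3, with a median of -1.43 against 0.10 over all probes tested. At the thresholds of the study 6 of 9 were lower in DHI, where 10.5% of all probes were called lower. Osmr is 1 of the 6, although its probe passed the filter on dim signal only through the I/R arrays. After adjustment 0 of 9 passed and 1 probe of all did, which is 0.00421%. The methods' t-test called 1 of 9, Serpina3n, lower at the thresholds of the study, where it called 0.737% of all probes lower, and 0 after adjustment. Only Serpina3n had every DHI array below every I/R array, which held for 4.02% of all probes. This comparison uses the same I/R arrays as I/R versus Sham, so the directions in both are not independent of each other.

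The DHI arrays were far from uniform. Gfap measured 2.51 on DHI 1, -0.20 on DHI 2 and 0.10 on DHI 3. DHI 1 lay inside the I/R range, whereas DHI 2 and DHI 3 lay between the Sham and I/R arrays. The mean was 4.01-fold lower than in I/R (log2 fold change -2.004, SE 0.67, limma unadjusted p = 0.0174 and adjusted p = 0.196), and the second probe gave -1.80. The spots of the Gfap probe, 10 on each array but 8 on I/R 2 after outliers were dropped, had a mean SD of 0.03 in DHI and in I/R, against an SD between rats of 1.49 in DHI and 0.55 in I/R.

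Vim measured 3.78, -0.30 and 0.46 on the DHI arrays. DHI 1 was above all I/R arrays and the others were within or just above the Sham range, so that the SD between DHI rats reached 2.17. The mean difference was -2.25 (SE 0.90, limma unadjusted p = 0.0374, adjusted p = 0.196). Nes showed the same split at -0.18, -1.63 and -1.56, with a difference from I/R of -1.15 (SE 0.44, limma unadjusted p = 0.0296, adjusted p = 0.196). Its second probe gave -0.93 and missed the thresholds of the study (limma unadjusted p = 0.0613).

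Serpina3n measured -4.37, -6.27 and -6.17 in DHI. DHI 1 was highest again, but here it stayed below the lowest I/R array, and DHI 2 and DHI 3 lay among the Sham arrays. The difference from I/R was the largest of the 9 genes at 6.67-fold lower (log2 fold change -2.74, SE 0.59, limma unadjusted p = 0.0017, adjusted p = 0.196). With normexp background correction it was -1.50. Lcn2 measured -1.85, -4.48 and -4.10 in DHI, with DHI 1 above 2 of the 3 I/R arrays. Its difference of -1.42 did not reach the thresholds of the study (SE 0.82, limma unadjusted p = 0.122, adjusted p = 0.257).

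Stat3 measured 0.90, -0.26 and -0.23 in DHI, and its difference of -0.74 missed the thresholds of the study (SE 0.33, limma unadjusted p = 0.0544). Osmr measured -7.18 on DHI 1, just above the lowest I/R array, and -8.82 and -8.83 on DHI 2 and DHI 3, where it was not well above background. Its fitted difference of -1.43 (SE 0.43, limma unadjusted p = 0.0108, adjusted p = 0.196) therefore rests on background values for 2 of 3 DHI arrays, and with normexp background correction it turned to 0.18. S1pr3 had the narrowest DHI group at -5.11, -5.25 and -5.43, overlapping only with I/R 3, and a difference of -0.63 (SE 0.24, limma unadjusted p = 0.0278, adjusted p = 0.196). That difference was -0.07 with normexp background correction. The 2 spots of the S1pr3 probe had a mean SD of 0.405 in DHI, wider than the SD between DHI rats of 0.16. Hspb1 measured 2.08, -0.81 and -0.34, and its difference of -1.52 missed the thresholds of the study (SE 0.68, limma unadjusted p = 0.0569).

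**Figure D3:**
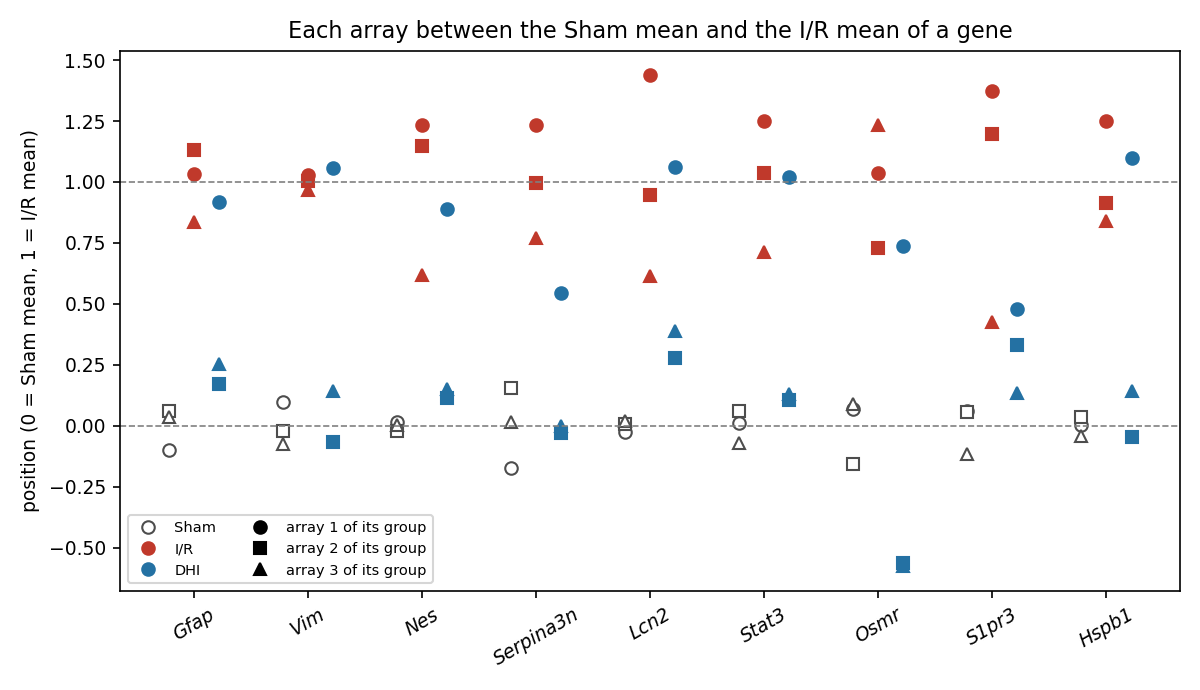
Position of each array for each gene on a scale where 0 is the mean of the Sham arrays and 1 the mean of the I/R arrays; color is the group and the marker shape the replicate number. The median position over the 9 genes was 0.92 for DHI 1, 0.10 for DHI 2 and 0.14 for DHI 3.

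Set on a scale from the Sham mean at 0 to the I/R mean at 1, DHI 1 had a median position of 0.92 over the 9 genes, DHI 2 of 0.10 and DHI 3 of 0.14. The I/R arrays had 1.23, 1.00 and 0.77 in the order of their numbers. DHI 1 was the highest DHI array for 9 of 9 genes and lay within the I/R range for 7 of 9, with Vim above that range and Serpina3n below it. DHI 2 and DHI 3 lay below every I/R array for 9 of 9. The share of all probes for which this held was not counted, but without DHI 1, 19.1% were lower than in I/R at the thresholds of the study. The summed microglia and macrophage markers showed the same split, at 88.0 on DHI 1, 14.0 on DHI 2 and 15.9 on DHI 3. Among I/R arrays I/R 1 was the highest for 7 of 9 genes and I/R 3 the lowest for 8 of 9. The order of the rats was thus much alike for the 9 genes within both injured groups.

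Single arrays decided the count of calls in DHI versus I/R. Without DHI 1, 9 of 9 genes met the thresholds of the study and 8 of 9 were lower by the adjusted test, S1pr3 being the exception with limma adjusted p = 0.061. Of all probes 19.1% were then lower at the thresholds of the study and 40.1% passed the adjusted test in either direction. The log2 fold change was then -2.86 for Gfap, -3.48 for Vim and -3.35 for Serpina3n. Without I/R 1, Gfap, Serpina3n and Osmr, 3 of 9, met the thresholds of the study, where 2.08% of all probes were lower. Dropping I/R 2, DHI 2 or DHI 3 instead left Serpina3n and Osmr, 2 of 9. The shares of all probes called lower were then 2.86%, 1.8% and 2.13%, in that order. Osmr was in each of these counts, although its probe passed the filter on dim signal only through the I/R arrays. It was not well above background on DHI 2 and DHI 3, so that without DHI 1 its DHI mean rests on background values. The direction was the same for all 9 genes whichever array was left out. DHI 1 carries the label of its group and nothing in the labels sets it apart, so it stays in all values above. The 2 groups fitted without the Sham arrays gave Gfap, Serpina3n and Osmr, 3 of 9, at the thresholds of the study, where 4.66% of all probes were lower.

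**Figure D4:**
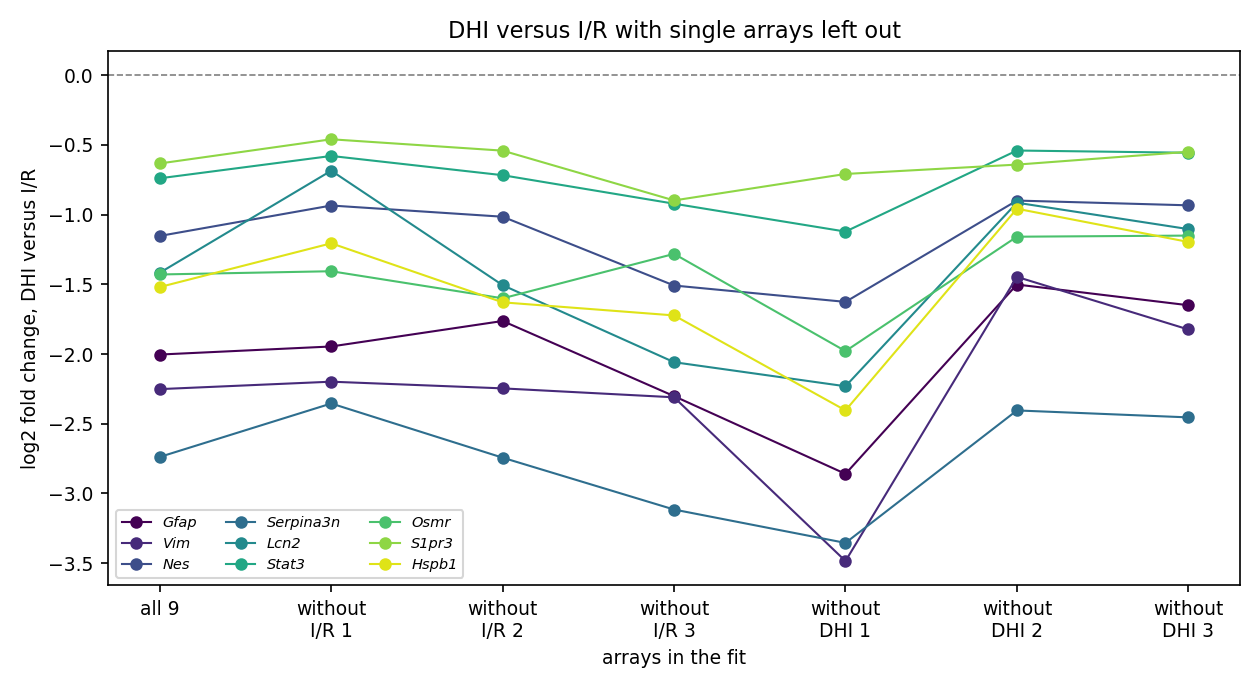
Log2 fold change of DHI versus I/R (vertical axis) for the 9 genes with all 9 arrays and with 1 I/R or DHI array left out (horizontal axis); lines join the values of a gene. All values are below 0, and they are farthest from 0 for Vim without DHI 1 at -3.48.

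DHI versus Sham asks what remained after treatment. The median log2 fold change over the 9 genes was 0.72 against 0.02 over all probes tested. Gfap and Lcn2, 2 of 9, were higher in DHI at the thresholds of the study, where 2.5% of all probes were. Gfap was 3.08-fold higher (log2 fold change 1.62, SE 0.67, limma unadjusted p = 0.0418, adjusted p = 0.708), and its second probe gave 1.97. Lcn2 was 3.80-fold higher (log2 fold change 1.93, SE 0.82, limma unadjusted p = 0.0466, adjusted p = 0.708). After adjustment 0 of 9 passed by limma, as did 0% of all probes, and the methods' t-test called 0 of 9 at either threshold. Every DHI array lay above every Sham array for Gfap, Nes, Lcn2, Stat3 and S1pr3, 5 of 9 genes, against 10.3% of all probes. Lcn2 stood furthest from Sham on the low arrays, with a mean of DHI 2 and DHI 3 that was 1.11 log2 units above the Sham mean, followed by Gfap at 0.77. For Vim the same difference was 0.14, for Hspb1 0.12 and for Serpina3n -0.0535.

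The genes that surround the members in their pathways were counted in lists, with rises and falls judged by the same adjusted test. In I/R versus Sham 0 genes of these lists passed that test when any 1 Sham array, I/R 1, I/R 2 or DHI 3 was left out, whereas over all probes 10264 passed without DHI 1, 10137 without I/R 3 and 7998 without DHI 2, against 7471 with all arrays. Of the other pan-reactive astrocyte genes 6 of 6 rose in I/R, with a median log2 fold change of 4.04. Cxcl10, a chemokine for T cells, rose by 6.14 (SE 1.34) and Cp, the copper-carrying ferroxidase ceruloplasmin, by 4.36 (SE 1.07), both with limma adjusted p = 0.0396. With DHI, Cxcl10, Cp, Timp1 and Cd44, 4 of 6, were lower than in I/R at the thresholds of the study and 0 of 6 passed the adjusted test.

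Lists named for neuroinflammation (A1) and ischemia (A2) separate 2 described kinds of reactive astrocyte. Of the 8 A1 genes tested 5 rose and none fell in I/R, led by the complement component C3 at 6.15 (SE 1.08) and the guanylate-binding protein Gbp2 at 4.69 (SE 0.93), with the complement inhibitor Serping1, the immunoproteasome subunit Psmb8 and the proteoglycan Srgn at 4.38, 3.97 and 1.61. Of the 10 A2 genes tested 7 rose, led by the transporter Slc10a6 at 4.06 (SE 0.84) and the lipopolysaccharide co-receptor Cd14 at 3.73 (SE 1.05). Ptgs2, which encodes the prostaglandin enzyme cyclooxygenase 2 and is also expressed by neurons, fell by 1.99 (SE 0.58). Against I/R, the DHI group had C3, Gbp2, Serping1, Psmb8 and Srgn, 5 of 8 A1 genes, lower at the thresholds of the study, and of the A2 list S100a10, Emp1, Slc10a6, Tm4sf1 and Cd14, 5 of 10. Fkbp5 of the A1 list, a stress-hormone response gene, was 0.65 higher and Ptgs2 1.41 higher, and none of these passed the adjusted test. C3, Cd14 and Gbp2 are made by macrophages as well.

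The pathway of Osmr and Stat3 moved in part. Of the 12 genes of gp130-JAK-STAT3 signaling tested beside them, 4 rose in I/R and none fell. They were the interleukin-6 receptor Il6r at 2.61 (SE 0.57), the gp130 gene Il6st at 1.53 (SE 0.43), the ciliary neurotrophic factor Cntf at 1.43 (SE 0.40) and the feedback inhibitor Socs3 at 0.93 (SE 0.24). The kinases Jak1 and Jak2 differed by 0.35 and 0.29 and did not pass. Lifr, the leukemia inhibitory factor receptor, was 0.87 lower and met the thresholds of the study with limma adjusted p = 0.0627. Osm, the ligand of the oncostatin M receptor, was 0.59 higher and also met them, with limma adjusted p = 0.078, and Il6 was not tested, with a probe well above background on 2 I/R arrays and on no Sham array. Comparing DHI with I/R, Il6r at -1.96 and Il6st at -1.02 were lower at the thresholds of the study.

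Of the sphingosine-1-phosphate system to which S1pr3 belongs, 2 of 9 genes rose in I/R, the lyase Sgpl1 by 1.78 (SE 0.45) and the receptor S1pr2 by 1.73 (SE 0.42). The kinase Sphk1, which makes the ligand, was 2.23 higher with limma adjusted p = 0.057. The receptor S1pr1 was 0.76 lower with limma adjusted p = 0.051. Treated rats had lower Sgpl1, at -1.25, and a lower receptor S1pr4, at -0.76, than I/R rats at the thresholds of the study.

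Partners of the intermediate filaments moved both ways. Synm, the synemin that joins Gfap and Vim filaments in astrocytes, rose by 1.24 (SE 0.33) and Lmna of the nuclear lamina by 0.61 (SE 0.20). The neuronal filament genes Nefh, Nefm, Nefl, Ina and Prph fell, 5 of the 10 genes tested, with Nefh at -3.46 (SE 0.79) and Nefm at -3.37 (SE 0.92). With DHI, Nefh, Nefm and Nefl were higher than in I/R at the thresholds of the study, by 2.71, 2.26 and 2.32. Of the 8 other small heat shock proteins and their regulator Hsf1, Hspb8 rose by 1.49 (SE 0.39) and Hspb9 by 0.72 (SE 0.20). Cryab, the crystallin most like Hspb1 in its role, differed by 0.08 and Hsf1 by -0.17. Hspb3 at -1.78 and Hspb7 at -0.66 were lower at the thresholds of the study, with limma adjusted p = 0.082 and 0.078. Hspb7 was well above background on no I/R array. Only Hspb8 of this list, at -1.02, was lower with DHI than in I/R at the thresholds of the study; Hspb9 at -0.58 was just short of the fold change.

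Homeostatic astrocyte markers, which resting astrocytes carry, had a median log2 fold change of 0.21 in I/R versus Sham, against 2.53 for the reactive genes and -0.10 for all probes. Of these 13 genes 2 rose, the water channel Aqp4 by 1.47 (SE 0.42) and the gap junction gene Gja1 by 0.79 (SE 0.22), and 0 fell by the adjusted test. At the thresholds of the study 3 were higher, with the folate enzyme Aldh1l1 as the third, and 3 were lower, the glutamate transporter Slc1a2 at -1.12, the potassium channel Kcnj10 at -1.12 and the glycolytic enzyme Aldoc at -0.70. Glul, S100b and Sox9 differed by 0.10, 0.20 and 0.21. Treatment was accompanied by a lower value against I/R at those thresholds for Aqp4 alone, at -1.11. All 13 were well above background on every array except Kcnj10 on I/R 2, so the labelled tissue carried its astrocyte markers in every group. No test of the 2 lists against each other was made.

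**Figure D5:**
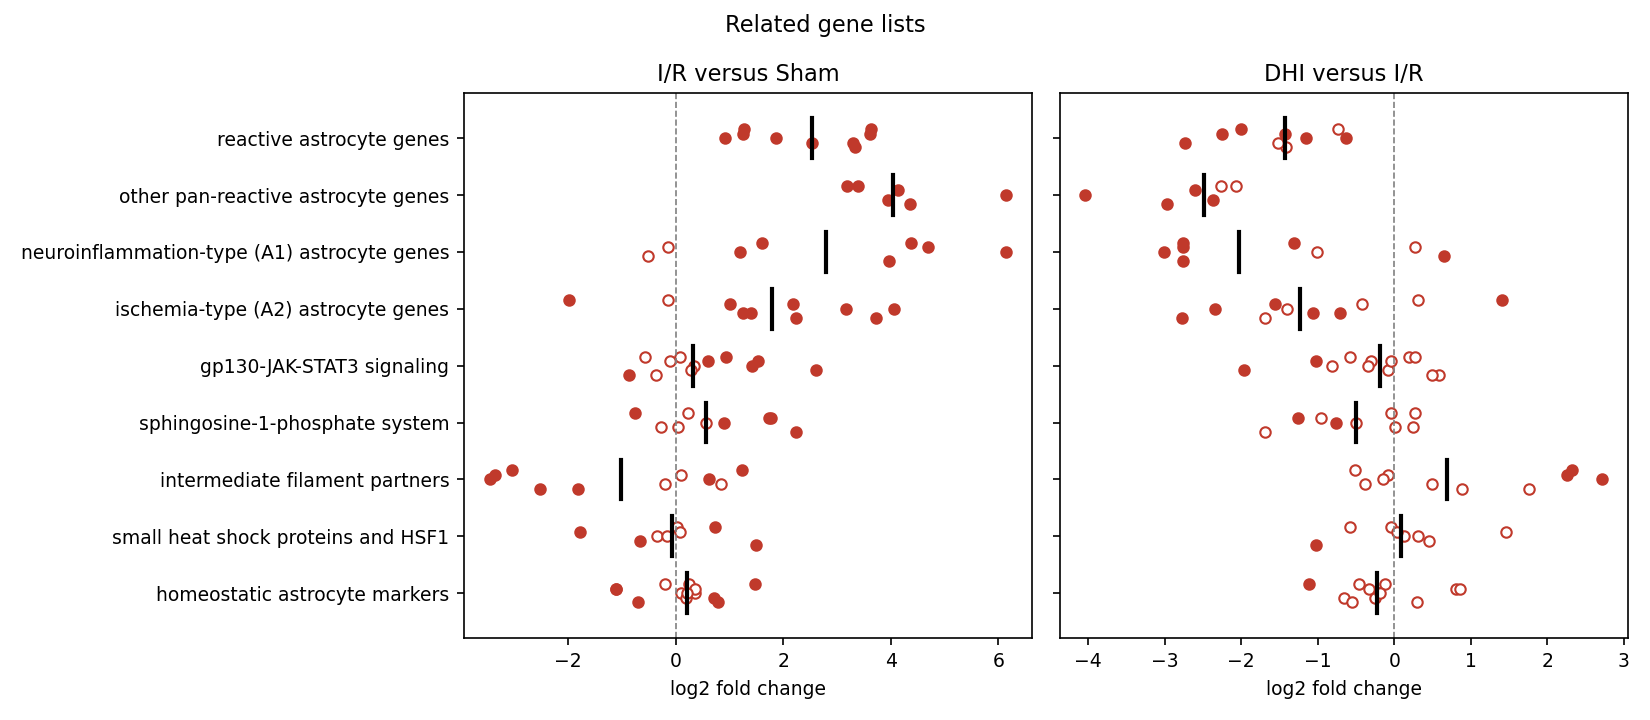
Log2 fold change (horizontal axis) of every tested gene of 9 gene lists (rows) for the first comparison (left) and for DHI against I/R (right); filled points met the study's thresholds and black bars are list medians. The median of the reactive astrocyte genes was 2.53 and that of the homeostatic markers 0.21 in I/R versus Sham.

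Markers of some other cell types rose in I/R as the members did, whereas most neuron markers fell. Of the microglia and macrophage markers 8 of 9 rose in I/R, with a median of 3.40, and their summed level, in multiples of the 75th percentile, was 10.2 to 12.5 in Sham, 57.1 to 167 in I/R and 14.0 to 88.0 in DHI, the last on DHI 1. Of the mural cell and fibroblast markers 6 of 8 rose, with summed levels of 5.36 to 9.44, 70.9 to 114 and 5.78 to 98.7 in the same order, again highest in DHI on DHI 1. Neuron markers had 6 of 8 fall, and their sums were 54.4 to 64.9 in Sham, 4.74 to 26.1 in I/R and 16.3 to 56.4 in DHI, the lowest DHI array being DHI 1. All of these markers were well above background on every array. Of the other markers tested, 4 of 5 of T cells, 2 of 7 of endothelial cells, 2 of 4 of neutrophils, 2 of 3 of oligodendrocyte precursors, 1 of 4 of ependymal cells, 1 of 4 of the choroid plexus, 1 of 4 of neural progenitors and 0 of 6 of oligodendrocytes rose, and none fell. The summed level of the 9 reactive astrocyte genes was 3.05 to 3.40, 20.5 to 30.4 and 3.49 to 26.8. The homeostatic astrocyte markers summed to 209 to 221, 188 to 240 and 183 to 210. Choroid plexus markers, of a tissue inside the ventricles, summed to 0.602 to 1.096, 1.22 to 93.5 and 7.57 to 137. The part of these cells in the values of the members was not tested.

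Across the 9 arrays the genes closest to the Gfap probe, of 15592 candidates that were not members, were LOC688112, Hmg20b, Stap1, Pltp, Gpr18, Gbp5, Bax, Itgal, LOC685067 and Cd180, with Pearson's r from 0.991 to 0.997. Among them Stap1, Gpr18, Itgal and Cd180 are known from leukocytes, Gbp5 is an interferon-induced GTPase, Pltp transfers phospholipids and Bax promotes apoptosis. The members themselves had r with Gfap of 0.972 for Stat3 and Nes, 0.962 for Vim, 0.959 for Hspb1, 0.939 for Serpina3n, 0.933 for Lcn2, 0.865 for S1pr3 and 0.80 for Osmr. Over the 6 I/R and DHI arrays r was between 0.781 for S1pr3 and 0.969 for Vim. All these arrays share the step from Sham to I/R or the spread among injured rats, and 505 candidates had a higher r than Stat3, the closest member together with Nes. The correlations are a description of 9 arrays.

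The promoters of Serpina3n, Osmr and Hspb1 are printed because each holds a core motif of STAT, AP-1 or heat shock factors, which are known from injury responses. They are the 250 bases upstream of the start site in RefSeq's annotation of the rat assembly GRCr8, whose coordinates are not those of the probes, and all 9 members had an entry. Capitals mark the motif, written 5′ to 3′ on the strand of the gene, and each motif reads the same on both strands. TTCNNNGAA is the core bound by STAT factors, TGANTCA that of AP-1 and GAANNTTC that of the heat shock factors. The motif in the Serpina3n promoter (chr6:129088142-129088391, plus strand) starts at -123, that of Osmr (chr2:57688562-57688811, minus strand) at -33 and those of Hspb1 (chr12:26432302-26432551, minus strand) at -129 and -109.
Serpina3n promoter: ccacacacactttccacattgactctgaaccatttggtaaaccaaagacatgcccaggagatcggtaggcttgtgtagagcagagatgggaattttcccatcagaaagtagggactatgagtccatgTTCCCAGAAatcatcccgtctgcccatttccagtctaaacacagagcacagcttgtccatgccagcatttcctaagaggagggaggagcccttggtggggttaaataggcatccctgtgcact
Osmr promoter: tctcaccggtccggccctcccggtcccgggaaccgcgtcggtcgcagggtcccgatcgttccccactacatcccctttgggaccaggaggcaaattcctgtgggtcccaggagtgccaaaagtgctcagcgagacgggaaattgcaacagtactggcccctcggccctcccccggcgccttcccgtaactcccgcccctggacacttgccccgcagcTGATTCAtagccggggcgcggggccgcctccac
Hspb1 promoter: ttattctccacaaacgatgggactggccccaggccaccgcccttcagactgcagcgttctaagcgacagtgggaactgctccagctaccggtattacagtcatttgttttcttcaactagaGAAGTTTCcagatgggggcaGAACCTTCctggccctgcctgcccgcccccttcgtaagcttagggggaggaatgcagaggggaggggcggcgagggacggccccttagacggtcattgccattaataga

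TTCNNNGAA was found in 1 of 9 member promoters, Serpina3n, and in 7.67% of the 33469 promoters of the same length. TGANTCA was found in 1 of 9, Osmr, and in 6.34% of all. GAANNTTC was found in 2 of 9, Hspb1 and Serpina3n, and in 7.23% of all. In Serpina3n it starts at -161 and is left in lower case above. The motifs do not overlap one another in these windows. A match of letters is not a binding site, and these arrays did not measure the binding of any factor.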

How the data were processed

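The authors labelled total RNA with Cy3 for Agilent SurePrint G3 rat arrays and scanned them in 1 color. The deposited scanner files hold an intensity per spot, background-subtracted and detrended by Agilent Feature Extraction 10.7.1.1. A deposited table of log2 values, whose normalization is not given in the sources used here, served as an alternative; it followed quantile-normalized intensities with Pearson's r of at least 0.9995 on every array. Here control spots and outlier spots (392 to 725 per array) were dropped, log2 intensities of a probe's spots were averaged, and the array's 75th percentile (1816 to 3464) was subtracted. Of 30367 probes, 23736 with a value on all arrays and well above background on the 3 arrays of at least 1 group were tested in limma 3.58.1 (R 4.3.3) over 9 arrays, with Benjamini-Hochberg adjustment and 6 residual degrees of freedom. From 75.25 to 78.97% of probes were well above background and 0 saturated. The number of arrays limits the precision. The study describes its replicates as biological.

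The members and lists were chosen with earlier results of these data known. Named genes were the members with every probe, per list the called genes with the largest change and those behind small counts, and the 10 genes closest to Gfap. Other genes named as examples were chosen after their values were seen. Alternatives changed the scaling, background correction, filter, arrays, model and test. RefSeq accessions of 9 of 11 member probes matched the GRCr8 gene table under the same symbol. Scripts were tested on simulated data.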

Additional observations from a re-analysis of the deposited data

How the results depend on the processing

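In I/R versus Sham the direction of all 9 genes held under every alternative that tested them, and 7 to 9 met the thresholds of the study. The 8 that passed the adjusted p became 0 without scaling, where 0.00421% of all probes passed, and 0 to 9 with 1 array left out. In DHI versus I/R the 6 at the thresholds of the study became 3 with only the 2 groups, 1 with the methods' t-test, 4 with normexp, 8 without scaling, 9 with array weights and 2 to 9 with 1 array left out. Of all probes 4.66% were lower at those thresholds with only the 2 groups, 0.737% with the methods' t-test, 7.58% with normexp, 29.8% without scaling and 22.5% with array weights. That share ranged from 1.8% to 19.1% with 1 array left out. The 0 that passed the adjusted p became 9 with array weights, whose estimation stopped before it converged, and 0 to 8 with 1 array left out. Of all probes 51.5% passed the adjusted p with array weights and 40.1% without DHI 1, in either direction. In DHI versus Sham the 2 at the thresholds of the study became 1 with quantile normalization, the series table or only the 2 groups, 0 without scaling or with the methods' t-test, 4 with array weights and 0 to 4 with 1 array left out. Of all probes 3.28% met those thresholds in either direction with quantile normalization, 3.3% with the series table and 3.8% with only the 2 groups. The same share was 7.09% without scaling, 1.88% with the methods' t-test, 17.6% with array weights and 1.44% to 10.6% with 1 array left out. With array weights 4 passed the adjusted p, as did 17.2% of all probes in either direction. Osmr turned to 0.18 against I/R and 0.39 against Sham with normexp background correction, and in DHI versus Sham to 0.10 without DHI 2 and 0.11 without DHI 3. In the same comparison Serpina3n turned to -0.16 with array weights and -0.0535 without DHI 1. With 1 array left out, its range was -0.0535 to 0.90 and that of Osmr -0.72 to 0.11. The causes were not tested. Without scaling the median of all probes in DHI versus I/R moved from 0.10 to -0.36 and that of the members from -1.43 to -1.89, and of 5210 probes called 2719 were higher, against 357 of 7441 without scaling, 2321 of 5071 with quantile normalization and 3161 of 4961 with normexp. Arrays with the same replicate number share only that number: with it as a replicate block 9, 8 and 1 genes met the thresholds of the study in the 3 comparisons as ordered here. Of all probes 21.1% were then higher, 12.3% lower and 3.74% higher, in the same order. The deviations of same-numbered I/R and Sham arrays correlated at 0.067, -0.289 and 0.15, of DHI and I/R arrays at 0.476, -0.341 and 0.417, and of DHI and Sham arrays at 0.0773, 0.304 and 0.025. Osmr was not tested where a probe had to be well above background on all 9 arrays. Dim signal limits Osmr, which was well above background on 4 of 9 arrays, most.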
